A study of Mus musculus with 60 samples.

Results

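The 9 genes described here encode dopamine receptors and the signalling proteins that act next to them in striatal neurons: Drd1, Drd2, Drd3, Drd5, Ppp1r1b, Adcy5, Gnal, Rgs9 and Pde10a. They were taken by name from the deposited gene tables, where all 9 were found among 20423 genes. The tables hold 60 RNA-seq libraries from striatum, cortex and cerebellum of mice. Homozygous PON2-deficient mice (which lack most of the messenger RNA of paraoxonase 2, a lactonase of intracellular membranes) were set against wild-type mice, with 5 libraries in each of the 12 groups of region, sex and genotype. Both genotypes came as littermates from crosses of heterozygotes on a C57BL/6J background. All animals were 3 to 4 months old and had been through behavioural tests before the tissue was dissected and frozen. The labels do not describe how the Pon2 allele was made. The tissue was bulk tissue, in which fewer cells of a type and less RNA per cell cannot be told apart. Nothing in the labels says which libraries of different regions came from the same mouse.

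Dopamine receptors fall into a stimulatory and an inhibitory class. The D1-like receptors Drd1 and Drd5 raise the second messenger cyclic AMP (cAMP), and the D2-like receptors Drd2 and Drd3 lower it. In the striatum most output neurons are projection neurons that carry either Drd1, in the direct pathway, or Drd2, in the indirect pathway. In these neurons Drd1 acts through the olfactory-type G protein alpha subunit encoded by Gnal, and adenylyl cyclase 5, encoded by Adcy5, makes most of the cAMP. Rgs9 encodes a protein that speeds the shut-off of the inhibitory G proteins, Pde10a a phosphodiesterase that degrades cyclic nucleotides, and Ppp1r1b the phosphatase regulator DARPP-32, which cAMP-dependent kinase converts into an inhibitor of protein phosphatase 1.

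Positions are those of GENCODE M21 on the mouse genome build GRCm38. Drd1 lies on chromosome 13 from 54051183 to 54055705 on the minus strand, and Drd2 on chromosome 9 from 49340627 to 49408177 on the plus strand. Drd3 lies on chromosome 16 from 43754026 to 43822932 and Drd5 on chromosome 5 from 38319367 to 38322518, both on the plus strand. Ppp1r1b (98348404 to 98357796, plus strand) and Rgs9 (109225355 to 109298129, minus strand) share chromosome 11. Adcy5 lies on chromosome 16 from 35154877 to 35305738 and Pde10a on chromosome 17 from 8525372 to 8986648, both on the plus strand. The values below are over whole genes, so splice forms of a gene, such as the long and short forms of the Drd2 receptor, are not separated.

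The sequences before the start of 4 members are shown because Drd1, Drd2 and Rgs9 differed most between the regions and Adcy5 held the most promoter letters of those searched. They come from RefSeq on GRCm38.p6, run 5′ to 3′ on the strand of the gene, and stop at the RefSeq start or at the first annotated exon. Both strands were searched for promoter letters, which are in capitals. The letters GGGCGG were taken as a GC box, TATAAA as a TATA box, and the CCAAT box is spelled by its name. The windows are chr13:54055706-54055908 (minus strand) for Drd1, chr9:49340153-49340402 (plus) for Drd2, chr11:109298182-109298431 (minus) for Rgs9 and chr16:35154614-35154863 (plus) for Adcy5.
Drd1: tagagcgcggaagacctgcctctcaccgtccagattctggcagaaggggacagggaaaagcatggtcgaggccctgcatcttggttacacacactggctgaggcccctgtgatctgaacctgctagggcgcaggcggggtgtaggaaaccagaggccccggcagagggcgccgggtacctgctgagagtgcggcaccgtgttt
Drd2: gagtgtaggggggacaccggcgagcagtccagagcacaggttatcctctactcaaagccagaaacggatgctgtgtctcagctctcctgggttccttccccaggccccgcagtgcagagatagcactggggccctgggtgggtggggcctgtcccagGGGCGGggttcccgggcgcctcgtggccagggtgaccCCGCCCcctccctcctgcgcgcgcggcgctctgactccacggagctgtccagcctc
Rgs9: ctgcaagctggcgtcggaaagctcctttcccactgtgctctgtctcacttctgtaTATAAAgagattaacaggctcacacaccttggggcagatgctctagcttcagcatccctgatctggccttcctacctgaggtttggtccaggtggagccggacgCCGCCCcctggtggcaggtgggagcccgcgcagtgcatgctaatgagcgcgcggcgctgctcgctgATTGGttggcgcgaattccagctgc
Adcy5: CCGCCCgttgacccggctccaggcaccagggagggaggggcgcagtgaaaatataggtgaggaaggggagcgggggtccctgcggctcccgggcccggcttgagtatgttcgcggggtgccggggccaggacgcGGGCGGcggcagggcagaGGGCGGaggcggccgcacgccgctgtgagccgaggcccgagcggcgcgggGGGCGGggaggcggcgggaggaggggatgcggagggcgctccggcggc

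The GC box letters occurred 4 times before Adcy5, 93 and 56 bases before the start of Drd2 and 91 bases before that of Rgs9. The Drd1 window shown held none of the letters searched, and the table's other start of Drd1 had GC box letters 133 bases before it. Windows of 250 bases were examined for 7 members, with Ppp1r1b and Gnal left out. Of these 9 windows, 6 held GC box letters, against 32.7% of all 32851 promoters of the RefSeq table. Drd1 and Pde10a each had more than 1 window. Every window but that of Drd3 (39.2%) had a higher share of G and C than the median promoter (52.4%), up to 78% for Adcy5. The share of GC box letters among promoters of like G and C content was not counted. CCAAT box letters were in 3 windows (33.8% of all promoters) and TATA box letters in 1, that of Rgs9 (12.4%). The windows of Drd3 and Pde10a and the window at the other start of Drd1 lay inside the GENCODE gene, not before its start. CCAAT box letters of Drd3 and Pde10a were in such windows. The cAMP response element (TGACGTCA, in 1.55% of promoters), its core (TGACG, part of the full element, 17.8%) and the site of EGR factors (GCGTGGGCG, 0.536%) were in none of the 9 windows.

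Library totals lay between 26091911 and 28125224 counts, and levels are CPM (counts-per-million of the TMM-scaled library size). Pon2 had 2.54 to 6.91 CPM in PON2-deficient striatum against 44.7 to 56.8 CPM in wild-type striatum, and the genotypes did not overlap in cortex or cerebellum either. The labelled regions had their own markers: the summed level of 18 markers of striatal projection neurons was 3781 to 7584 CPM in striatum, 686 to 1273 CPM in cortex and 321 to 369 CPM in cerebellum. The striatum library of PON2-deficient male 5 stood apart, with a mean deposited precision weight of 0.0527 times the regional median and the fewest genes with a count (19941). The genotype and sex differences of the members in striatum and their relation to the striatal markers are given with and without it.

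The highest level of all 9 genes was in striatum, followed by cortex and then cerebellum. Among the receptors, Drd2 averaged 220 ± 40.9 CPM in striatum, 25.6 ± 7.98 CPM in cortex and 2.43 ± 1.07 CPM in cerebellum (SD, n = 20 libraries each, both genotypes). Drd1, which marks the direct pathway, averaged 225 ± 36.4 CPM in striatum, 34.1 ± 7.91 CPM in cortex and 0.297 ± 0.149 CPM in cerebellum (SD, n = 20 each). Of all 9 genes Drd1 had the steepest decline to cerebellum. Drd5, the other D1-like receptor, had 3.75 ± 0.686 CPM in striatum, 2.15 ± 0.437 CPM in cortex and 0.730 ± 0.264 CPM in cerebellum. Drd3, a D2-like receptor best known from the ventral striatum and the islands of Calleja, had 0.929 ± 0.326, 0.352 ± 0.175 and 0.0796 ± 0.0596 CPM in striatum, cortex and cerebellum. At 0 to 0.209 CPM in cerebellum, Drd3 was close to the limit of the depth and did not pass the filter on low counts there.

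The signalling genes followed the same order of regions. Ppp1r1b averaged 1902 ± 449 CPM in striatum, 319 ± 73.0 CPM in cortex and 191 ± 22.4 CPM in cerebellum (SD, n = 20 each). Adcy5 averaged 1103 ± 198, 258 ± 33.6 and 64.0 ± 4.67 CPM in the same order, and Pde10a 1058 ± 246, 165 ± 36.6 and 83.9 ± 19.5 CPM. Gnal, on the plus strand of chromosome 18 from 67088216 to 67226792, had the flattest profile of the signalling genes, with 732 ± 129, 237 ± 19.4 and 181 ± 13.9 CPM. Rgs9 had the steepest, with 417 ± 79.8 CPM in striatum, 58.6 ± 15.2 CPM in cortex and 2.92 ± 0.760 CPM in cerebellum.

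**Figure D1:**
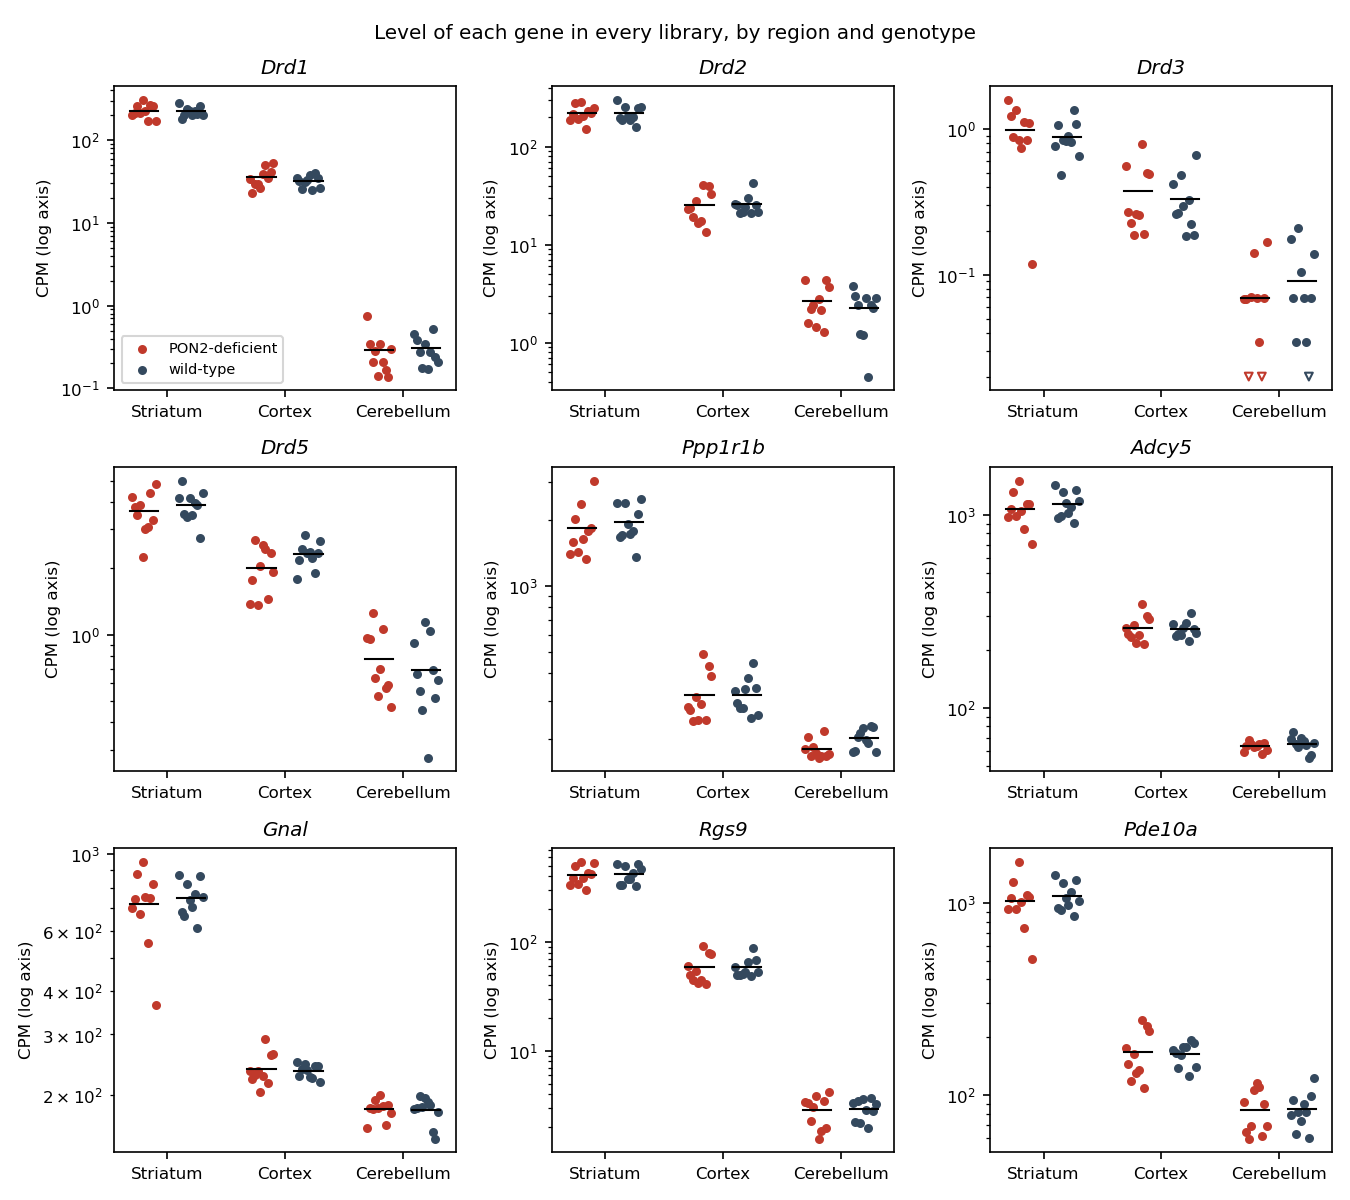
Level of each of the 9 genes in every library, in CPM on a log axis, with PON2-deficient libraries in red and wild-type libraries in dark grey within each region; black bars are group means (n = 10), and open triangles at the bottom of the Drd3 panel are the 3 libraries at 0 CPM. The regions separate for most genes, and the red and grey points overlap in every region, with Drd3 of 1 striatum library at 0.118 CPM.

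Levels of different genes can be compared only per length, so CPM was divided by the kilobases of annotated exon. This length joins the exons of all annotated transcripts of a gene (12.8 kilobases for Pde10a, 2.55 for Drd2). It can exceed that of the transcripts expressed, which lowers the value per kilobase. On this scale Ppp1r1b was first in striatum at 650 CPM per kilobase, ahead of Adcy5 at 154. They were followed by Drd2 at 86.3, Pde10a at 82.4, Gnal at 65.6, Rgs9 at 65.3 and Drd1 at 62.0 CPM per kilobase. From Drd2 to Drd1, neighbours in this order lay within 1 SD over libraries of each other, and their order was not tested. Drd2 (SD 16.1) and Drd1 (SD 10.0), at the ends of this stretch, lay more than 1 SD apart. Drd5 at 1.19 and Drd3 at 0.543 CPM per kilobase came last. Ppp1r1b was also first in cortex (109 CPM per kilobase) and cerebellum (65.1), followed by Adcy5 (35.9) in cortex and Gnal (16.2) in cerebellum. Drd1 was at 9.39 CPM per kilobase in cortex, within 1 SD of Drd2 at 10.1 and Rgs9 at 9.17, and at 0.0819 in cerebellum, where Drd2 was at 0.955.

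Of the 9 members, 9 were called higher in striatum than in cortex, where 28.8% of all genes tested were called higher in striatum. All differences are edgeR quasi-likelihood tests with Benjamini-Hochberg adjustment over all genes and a threshold of 0.05, and the largest adjusted p among the 9 was 5.88e-08, for Drd3. The log2 difference was largest for Drd2 at 3.11 (SE 0.13), followed by Rgs9 at 2.84 (SE 0.10), Drd1 at 2.74 (SE 0.08), Pde10a at 2.68 (SE 0.11) and Ppp1r1b at 2.58 (SE 0.09). It was 2.09 (SE 0.06) for Adcy5, 1.62 (SE 0.06) for Gnal, 1.39 (SE 0.21) for Drd3 and 0.80 (SE 0.11) for Drd5. The share of all genes whose libraries do not overlap between regions was not counted. For 7 members the lowest striatum library lay above the highest cortex library. The exceptions were Drd3, with 0.118 CPM in the lowest striatum library (PON2-deficient male 5) and 0.483 CPM in the lowest of the others against 0.792 CPM in the highest cortex library, and Drd5, with 2.24 CPM in the lowest striatum library against 2.83 CPM in the highest cortex library.

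The 9 members were likewise called higher in striatum than in cerebellum (40.2% of all genes were) and higher in cortex than in cerebellum (39.5% of all genes). Drd1 differed most from cerebellum, by a log2 difference of 9.56 (SE 0.12) in striatum and 6.81 (SE 0.12) in cortex. Rgs9 followed with 7.16 (SE 0.13) and 4.32 (SE 0.12), and Drd2 with 6.50 (SE 0.16) and 3.39 (SE 0.16). Gnal differed least, by 2.01 (SE 0.06) in striatum and 0.39 (SE 0.06) in cortex. Cortex and cerebellum libraries overlapped in Drd3 and in Pde10a, whose lowest cortex library had 109 CPM and whose highest cerebellum library had 122 CPM. The largest adjusted p was 1.31e-18 (Drd3) against cerebellum in striatum and 2.47e-08 (Gnal) in cortex. Drd3 passed the filter on low counts in this fit only through its striatum and cortex libraries. Its calls against cerebellum are therefore no separate support.

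The cortical level of each member was set against its striatal level. The cortex mean was 11.7% of the striatum mean for Drd2, 14.0% for Rgs9, 15.1% for Drd1, 15.6% for Pde10a and 16.8% for Ppp1r1b. It was 23.4% for Adcy5, 32.4% for Gnal, 37.9% for Drd3 and 57.4% for Drd5. For the 18 striatal markers, none of which is a member, the share ran from 11.9% (Syndig1l) to 39.3% (Foxp2). How much of the cortical level came from striatal tissue in the dissected piece was not tested.

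In striatum none of the 9 members was called between PON2-deficient and wild-type mice by edgeR's quasi-likelihood test over both sexes, and 0.0105% of all genes tested were called (2 genes). None had an unadjusted p under 0.05, and none was called by DESeq2, by voom with quality weights or by limma on the deposited values. Drd1 had 170 to 307 CPM (median 218) in the 10 PON2-deficient libraries and 181 to 281 CPM (median 215) in the 10 wild-type libraries. Drd2 had 150 to 286 CPM (median 217) in PON2-deficient and 160 to 300 CPM (median 204) in wild-type libraries. The ranges of both receptors nearly coincided, and the log2 difference was 0.03 for Drd1 (SE 0.10, 95% interval -0.18 to 0.25) and 0.01 for Drd2 (SE 0.12, interval -0.23 to 0.26).

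For the receptors of low abundance the striatal intervals were wider. Drd3 had 0.118 to 1.59 CPM (median 0.992) in PON2-deficient and 0.483 to 1.35 CPM (median 0.837) in wild-type striatum, a log2 difference of 0.14 (SE 0.25, interval -0.40 to 0.67). Drd5 had 2.24 to 4.84 CPM (median 3.66) in PON2-deficient and 2.74 to 4.99 CPM (median 3.91) in wild-type striatum, with a log2 difference of -0.09 (SE 0.13, interval -0.36 to 0.18). The interval of Drd3 thus leaves room for a difference of up to 0.67 on the log2 scale.

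The estimates of the signalling genes of the striatum were no larger than their standard errors. Ppp1r1b had 1328 to 3022 CPM (median 1708) in PON2-deficient and 1357 to 2507 CPM (median 1854) in wild-type striatum, a log2 difference of -0.09 (SE 0.14, interval -0.39 to 0.21). Adcy5 stood at -0.09 (SE 0.11, interval -0.31 to 0.14), Gnal at -0.06 (SE 0.12, interval -0.31 to 0.18) and Pde10a at -0.10 (SE 0.14, interval -0.39 to 0.20). Rgs9 stood at -0.01 (SE 0.12, interval -0.27 to 0.25), with 298 to 545 CPM in PON2-deficient and 324 to 523 CPM in wild-type libraries. The adjusted p lay between 0.995 and 0.998 for all 9 members, and the genotype ranges of all 9 overlapped.

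Without PON2-deficient male 5 no member was called in striatum either, and the estimates of Drd2 and Gnal changed sign. Ppp1r1b then stood at -0.20 (adjusted p 0.66 in the edgeR test), Pde10a at -0.02, Adcy5 at -0.04, Gnal at 0.01 and Drd3 at 0.27 (adjusted p 0.68). Drd1 was then at 0.07, Drd2 at -0.02, Drd5 at -0.15 and Rgs9 at -0.06. In that library Ppp1r1b was the highest of all 20 striatum libraries at 3022 CPM, while Pde10a (509 CPM), Gnal (365 CPM), Adcy5 (705 CPM) and Drd3 (0.118 CPM) were the lowest. Drd2 (249 CPM) and Rgs9 (526 CPM) stayed within the range of the others. Ppp1r1b and Pde10a thus lay at opposite ends of the range in this library.

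**Figure D2:**
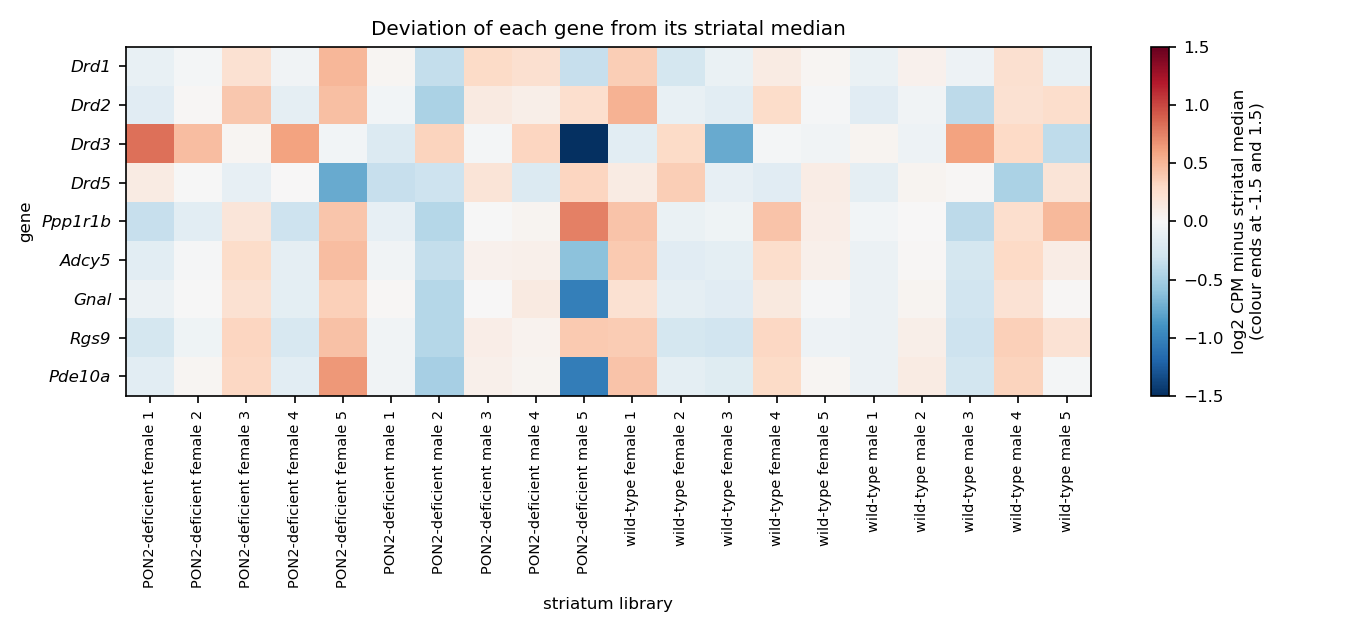
Log2 CPM of each gene minus its median over the 20 striatum libraries, PON2-deficient libraries to the left of the wild-type libraries; red is above and blue below the median, with the colour ending at -1.5 and 1.5. PON2-deficient male 5 has Ppp1r1b above and Pde10a, Gnal, Adcy5 and Drd3 below the median, while in the other libraries Drd2, Ppp1r1b, Adcy5, Gnal, Rgs9 and Pde10a mostly share a colour.

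In cortex none of the 9 was called between genotypes over both sexes, with 0.0316% of all genes called (6 genes). No member had an unadjusted p under 0.05, and the other tools called none. Drd1 had 23.2 to 52.8 CPM (median 34.3) in PON2-deficient and 24.7 to 40.3 CPM (median 32.4) in wild-type cortex, a log2 difference of 0.13 (SE 0.10, interval -0.07 to 0.34). Drd5 had 1.36 to 2.68 CPM (median 1.99) in PON2-deficient and 1.79 to 2.83 CPM (median 2.35) in wild-type cortex. Its log2 difference was -0.22 (SE 0.13, interval -0.50 to 0.06), the lowest estimate of the 9 in cortex, with 4 of 10 PON2-deficient libraries below the lowest wild-type library. Drd2 stood at -0.03 (SE 0.17, interval -0.40 to 0.34) and Drd3 at 0.14 (SE 0.30, interval -0.49 to 0.77). The 5 signalling genes lay between -0.02 (Ppp1r1b, SE 0.11) and 0.02 (Adcy5, SE 0.07).

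In cerebellum, where 8 members could be tested, none was called over both sexes and 0.0321% of all genes were (6 genes). Ppp1r1b came nearest, with 165 to 217 CPM (median 172) in PON2-deficient and 174 to 230 CPM (median 202) in wild-type cerebellum. Of the 10 PON2-deficient libraries, 6 lay below the lowest wild-type library. Its log2 difference was -0.16 (SE 0.06, interval -0.30 to -0.03), with an unadjusted p of 0.0169 and an adjusted p of 0.32 by edgeR. Under the other settings the adjusted p of Ppp1r1b in cerebellum ran from 0.167 to 0.457. Drd2 stood at 0.23 (SE 0.29, interval -0.39 to 0.86) and Drd1 at -0.10 (SE 0.29, interval -0.72 to 0.52). Drd5 was at 0.16 (SE 0.23), and Adcy5, Gnal, Rgs9 and Pde10a lay between -0.04 and 0.01.

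**Figure D3:**
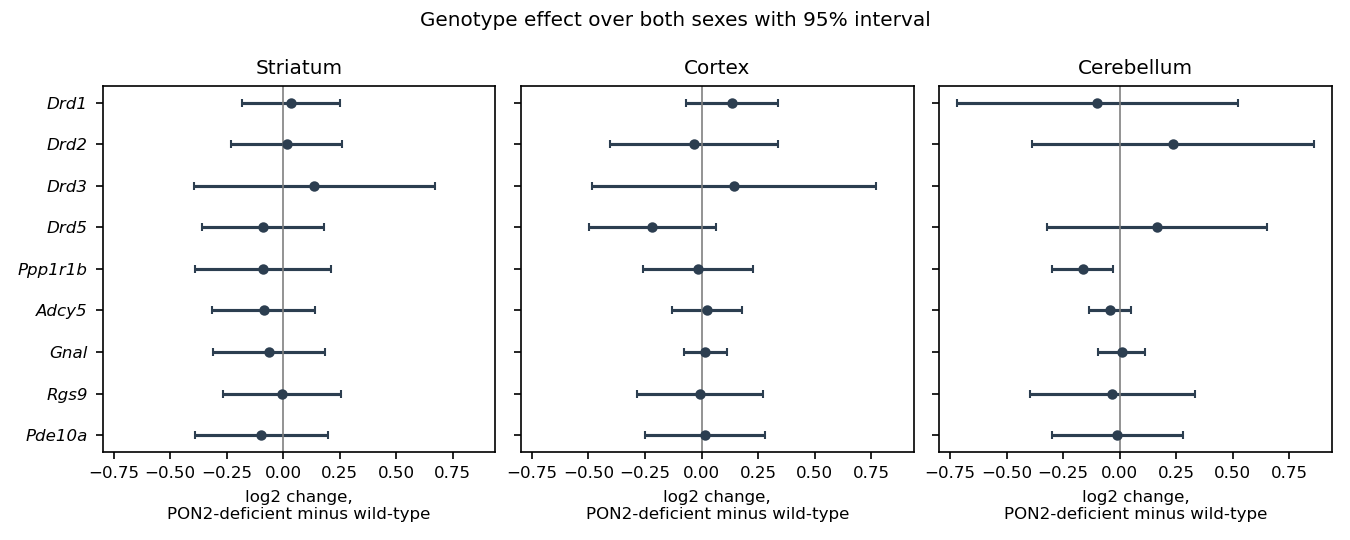
Log2 difference of each gene, PON2-deficient minus wild-type over both sexes, with the 95% interval of the edgeR fit, in striatum, cortex and cerebellum; Drd3 was not tested in cerebellum. Every interval includes 0 except that of Ppp1r1b in cerebellum (-0.30 to -0.03), and the widest are those of the genes of low level.

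The genotype effect in striatum was also set against that in the other regions in the fit over all libraries. None of the 9 was called for the difference between striatum and cortex (0% of all genes were called, with 1285 of them at an unadjusted p under 0.05 and 7 called by DESeq2). The estimates ran from -0.11 to 0.12 on the log2 scale. Between striatum and cerebellum none of the 9 was called either (0.00981% of all genes), with estimates between -0.25 and 0.44. No member had an unadjusted p under 0.05 in these tests.

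The sexes were examined apart. In cortex males 8 of 9 members had an estimate above 0, PON2-deficient over wild-type, and in cortex females 9 of 9 had one below 0, with none called by edgeR (0.148% of all genes were called in males and 0.00527% in females). The 18 striatal markers leaned the same way, with 14 above 0 in males and 18 below 0 in females and none called. Cortical Drd1 was 38.5, 50.3, 35.0, 41.1 and 52.8 CPM in PON2-deficient males and 37.8, 24.7, 40.3, 35.0 and 26.4 CPM in wild-type males. Of the 5 PON2-deficient males, 3 lay above every wild-type male. In females it was 33.6, 23.2, 29.6, 29.9 and 26.2 CPM in PON2-deficient and 34.9, 32.1, 25.8, 31.2 and 32.7 CPM in wild-type mice, and the groups overlapped.

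The log2 difference of Drd1 in cortex males was 0.41 (SE 0.14), with an unadjusted p of 0.00722 and an adjusted p of 0.18 by edgeR. Over all 27 alternatives, libraries left out in turn included, the adjusted p ran from 0.0753 to 0.369. With the striatal marker mean of each library as a covariate the difference was 0.37. The difference between the male and the female genotype effect was 0.54 (SE 0.19, adjusted p 0.39 by edgeR) for Drd1 and 0.21 (SE 0.09, adjusted p 0.46 by edgeR) for Gnal, both at an unadjusted p under 0.05. With the covariate these were 0.40 for Drd1 and 0.13 for Gnal. In that comparison no gene was called (0%), against 1814 genes at an unadjusted p under 0.05 and 51 called by DESeq2.

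In striatum neither sex had a member called (0.00527% of all genes in females and the same share in males), nor a member at an unadjusted p under 0.05. The difference between the sexes' genotype effects had no gene called (0%; 818 genes had an unadjusted p under 0.05, with 7 called by DESeq2). Over the members the estimates ran from -0.20 to 0.56 in females and from -0.29 to 0.01 in males. Without PON2-deficient male 5 no member was called either, and the male estimates ran from -0.21 to 0.06. Drd3 in males was then at -0.01 instead of -0.29, Gnal at -0.04 instead of -0.19, Pde10a at -0.12 instead of -0.26 and Ppp1r1b at -0.21 instead of 0.01. The difference between the male and the female effect ran from -0.85 to 0.21 over the members, and from -0.57 to 0.11 without that library, with Drd3 the lowest both times. Drd3 in striatum females was 1.59, 1.22, 0.886, 1.35 and 0.836 CPM in PON2-deficient and 0.768, 1.07, 0.483, 0.844 and 0.830 CPM in wild-type mice, with 3 of 5 PON2-deficient females above every wild-type female. In cerebellum no member was called in females (0.00534% of all genes), in males (0.016%) or for the difference between them (0%, with 885 genes at an unadjusted p under 0.05 and 1 called by DESeq2). Ppp1r1b in males was the only member there with an unadjusted p under 0.05, and 4 of 5 PON2-deficient males lay below every wild-type male.

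Males were compared with females over both genotypes. In cortex all 9 members had a male minus female estimate above 0, and none was called (0.0896% of all genes were). Drd1 had 24.7 to 52.8 CPM (median 38.2) in males and 23.2 to 34.9 CPM (median 30.6) in females, a log2 difference of 0.34 (SE 0.10, unadjusted p 0.00189, adjusted p 0.26 by edgeR). Rgs9 had 40.8 to 91.6 CPM (median 67.0) in males and 42.1 to 59.7 CPM (median 50.6) in females, a difference of 0.37 (SE 0.13, adjusted p 0.33 by edgeR). Ppp1r1b differed by 0.30 (SE 0.12, adjusted p 0.37 by edgeR). Of the 18 striatal markers, 17 had an estimate above 0, with a median of 0.21 and none called. With the striatal marker mean as a covariate the differences were 0.21 for Drd1, 0.08 for Rgs9 and 0.06 for Ppp1r1b. No member was called between males and females in striatum (0.105% of all genes) or in cerebellum (0.118%). In striatum the estimates ran from -0.24 to 0.02, and without PON2-deficient male 5 from -0.17 to -0.02 with none called.

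Most members followed the striatal markers from library to library. Members and markers were chosen with earlier results of these data known, so the p values of these relations are no separate support. Over the 20 cortex libraries the log2 CPM of Drd2 correlated with the mean log2 CPM of the 18 markers at r = 0.96 (rho 0.96), of Ppp1r1b at 0.96 (rho 0.94), of Adcy5 at 0.94 (rho 0.90), of Rgs9 at 0.94 (rho 0.89) and of Pde10a at 0.92 (rho 0.93). For each of these 5 the permutation p was 1e-05, the smallest that 100000 permutations can give, and 2.2e-05 after adjustment over the 18 relations examined. Gnal (r = 0.80, rho 0.74, permutation p 5e-05, adjusted 1e-04) and Drd1 (r = 0.70, rho 0.63, permutation p 0.00071, adjusted 0.00116) followed less closely. Drd3 (r = 0.37, rho 0.19, permutation p 0.109) and Drd5 (r = 0.05, rho -0.10, permutation p 0.844) did not pass the threshold. Of 15865 genes with at least 1 CPM in cortex, the markers left out, 0.328% had an r at least as high as that of Drd1, the lowest of the 7 members past the threshold. All points of a region share the same scaling, and both measures are relative to the library total. In both regions the permutations took no account of sex or genotype. A shift between these groups that a member shares with the markers can therefore add to r, and r within each sex was not taken.

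The cortical relations of these 7 members held when the 2 libraries farthest from the median marker level were left out, with r between 0.90 and 0.95 for Drd2, Ppp1r1b, Adcy5, Rgs9 and Pde10a, 0.75 for Gnal and 0.58 for Drd1. Within the PON2-deficient cortex libraries r was 0.72 for Drd1, 0.96 for Drd2 and 0.95 for Gnal, and within the wild-type cortex libraries it was 0.82, 0.96 and 0.25. The marker mean itself ran from 4.23 to 5.10 (median 4.48, log2 CPM) in PON2-deficient and from 4.41 to 4.97 (median 4.56) in wild-type cortex.

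Over the 20 striatum libraries Drd2 followed the marker mean most closely (r = 0.98, rho 0.97), then Rgs9 (r = 0.93, rho 0.92) and Ppp1r1b (r = 0.88, rho 0.89), each with a permutation p of 1e-05. For Adcy5 (r = 0.69, rho 0.83, permutation p 0.00068), Drd1 (r = 0.64, rho 0.63, permutation p 0.00288), Pde10a (r = 0.55, rho 0.79, permutation p 0.0114) and Gnal (r = 0.44, rho 0.80, permutation p 0.0504) r was lower. Without PON2-deficient male 5 it was 0.96 for Adcy5, 0.77 for Drd1, 0.91 for Pde10a and 0.93 for Gnal, a move of over 1.5 times for Pde10a and Gnal. After adjustment over the 18 relations 6 members passed by r and 8 by rank, the others being Gnal (adjusted permutation p of rho 6.55e-05) and Drd3. Drd3 had a negative relation that passed by rank only (r = -0.38, permutation p 0.102, and rho -0.48, permutation p 0.0343, adjusted 0.0412). Drd5 (r = -0.12, rho -0.10, permutation p 0.611) passed by neither. Of 15818 genes with at least 1 CPM in striatum, the markers left out, 5.17% had an r at least as high as that of Pde10a, the lowest of the 6. For the negative r of Drd3 this share was 87.0%, so lower values were found in many genes. No such share was counted by rank. With the 2 libraries farthest from the median marker level left out, r was 0.97 for Drd2, 0.92 for Rgs9, 0.87 for Ppp1r1b, 0.58 for Adcy5, 0.47 for Drd1, 0.40 for Pde10a and 0.29 for Gnal. Within genotypes Drd2 kept r = 0.98 in PON2-deficient and 0.99 in wild-type striatum. In the same order r was 0.96 and 0.91 for Rgs9, 0.84 and 0.95 for Ppp1r1b and 0.60 and 0.73 for Drd1. It differed more for Adcy5 (0.51 and 0.96), Pde10a (0.40 and 0.88) and Gnal (0.27 and 0.92), with PON2-deficient male 5 included.

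**Figure D4:**
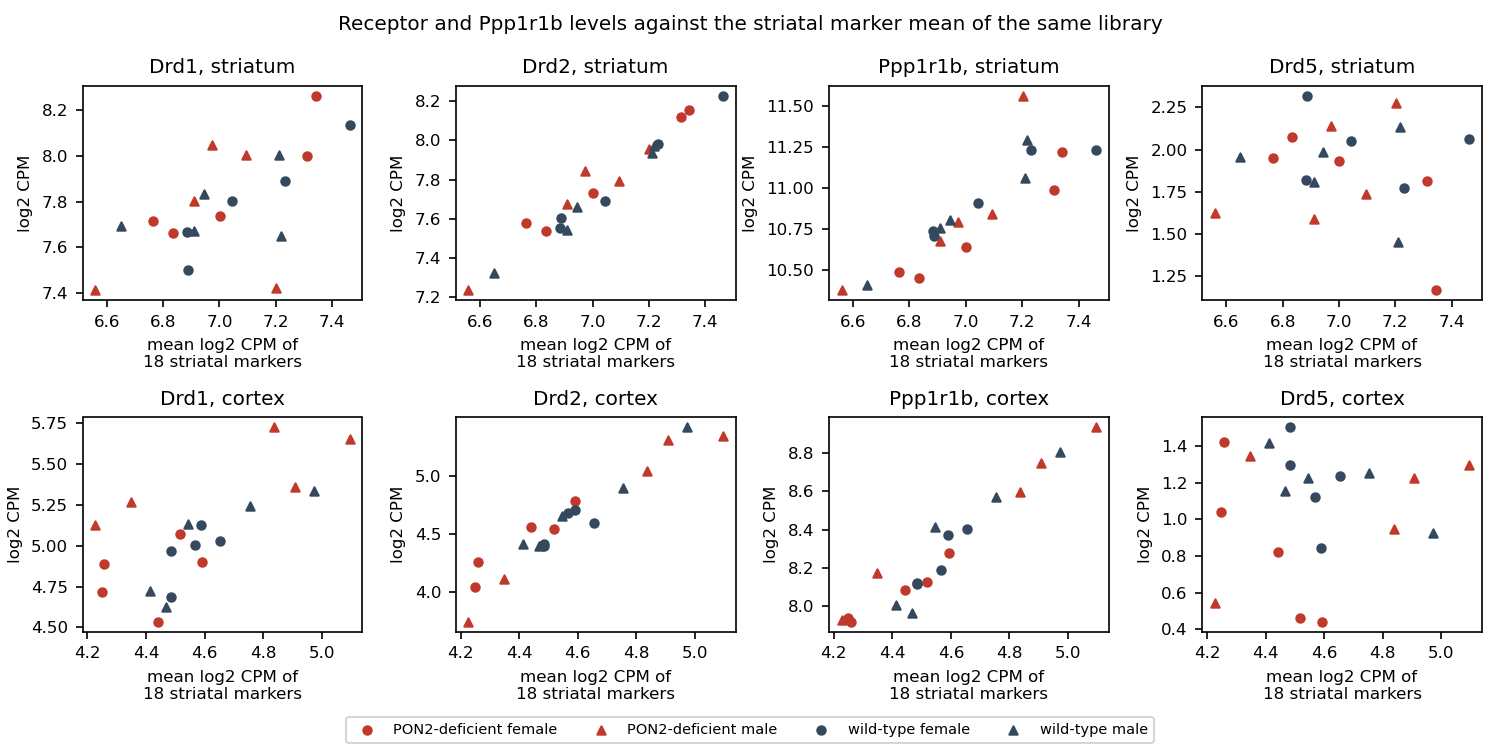
Log2 CPM of Drd1, Drd2, Ppp1r1b and Drd5 against the mean log2 CPM of 18 striatal markers in the same library, striatum above and cortex below; red is PON2-deficient and dark grey wild-type, circles are females and triangles males. Drd2 lies close to a line in both regions (r = 0.98 in striatum and 0.96 in cortex), 1 PON2-deficient male has the highest striatal Ppp1r1b, and the Drd5 points are scattered (r = -0.12 in striatum and 0.05 in cortex).

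Because Drd1 and Drd2 mark the direct and the indirect pathway in striatum, their ratio, not corrected for length, was taken in each library. For cortex and cerebellum it is given as a ratio of levels only. In striatum the ratio of Drd1 to Drd2 CPM was 0.689 to 1.16 (median 1.09) in PON2-deficient and 0.801 to 1.29 (median 1.06) in wild-type libraries, and the lowest was that of PON2-deficient male 5. In cortex it was 0.980 to 2.61 (median 1.49) in PON2-deficient and 0.944 to 1.46 (median 1.26) in wild-type libraries. The highest cortical ratios, 2.61 and 2.22, were those of PON2-deficient males 3 and 1, in which Drd2 was 13.4 and 17.4 CPM, the lowest and the third lowest of all cortex libraries. In cerebellum the ratio was below 1 in every library, with 0.0315 to 0.213 in PON2-deficient and 0.0610 to 0.615 in wild-type libraries. Drd1 was at 0.139 to 0.756 CPM there, so the cerebellar ratios rest on few counts. The ratio was chosen after the values were seen and was not tested.

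**Figure D5:**
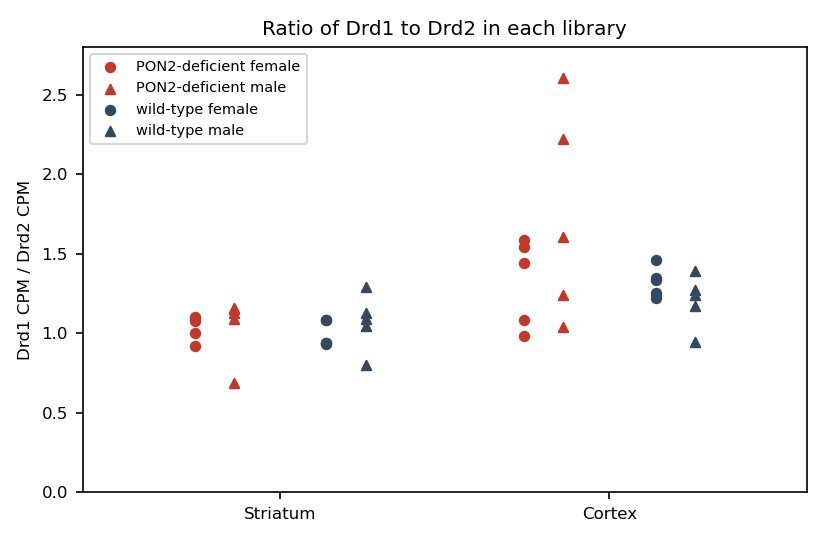
Ratio of Drd1 to Drd2 CPM in each striatum and cortex library, PON2-deficient in red to the left of wild-type in dark grey, with circles for females and triangles for males. Striatum libraries lie between 0.689 and 1.29, and 2 PON2-deficient cortex males stand above all others at 2.22 and 2.61.

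The other genes of the pathway were followed as a list of 49 receptors, G protein subunits, cyclases, kinases, phosphatases and phosphodiesterases that shares genes with the 18 striatal markers, Adora2a and Gpr6 among them. In striatum 18 had an estimate above 0 and 31 below 0, PON2-deficient over wild-type, with a median log2 difference of -0.02 against 0.00984 over all genes, and none was called. Without PON2-deficient male 5 the list had 19 above 0 and 30 below, with none called. The smallest p values were those of Gnao1, the main inhibitory G protein alpha subunit of the brain (log2 difference -0.15, SE 0.05, adjusted p 0.73 by edgeR), and Prkaca, a catalytic subunit of cAMP-dependent kinase (-0.13, SE 0.05, adjusted p 0.93 by edgeR). In cortex 32 were above 0 and 17 below (median 0.02, against -0.000563 over all genes) and none was called. Arrb2, the beta-arrestin through which Drd2 can signal apart from G proteins, was at 0.18 (SE 0.06, adjusted p 0.21 by edgeR), and the receptor kinase Grk6 at 0.06 (SE 0.03, adjusted p 0.33 by edgeR). In cerebellum 22 of the 48 tested were above 0 and 26 below, none called (median -0.01, against 0.000902 over all genes), with Gnao1 at -0.07 (SE 0.02, adjusted p 0.28 by edgeR) and Arrb2 at 0.14 (SE 0.05, adjusted p 0.31 by edgeR).

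Between regions the same list split. Of the 49 genes, 27 were called higher and 15 lower in striatum than in cortex, 36 higher and 11 lower in striatum than in cerebellum, and 37 higher and 11 lower in cortex than in cerebellum. Of all genes 28.8% were called higher and 28.2% lower in striatum than in cortex, 40.2% higher and 39.7% lower in striatum than in cerebellum, and 39.5% higher and 40.1% lower in cortex than in cerebellum. Among those with the smallest p against cortex, the genes named here were all higher in striatum: Gng7, the gamma subunit that pairs with the Gnal product (log2 difference 2.43, SE 0.07), the phosphodiesterase Pde1b (2.19, SE 0.06), the orphan receptor Gpr6 (3.02, SE 0.09), the guanine nucleotide exchange factor Rasgrp2 (1.94, SE 0.07) and the adenosine receptor Adora2a (3.06, SE 0.11). Gng7 averaged 1051 ± 203 CPM in striatum, 195 ± 32.5 CPM in cortex and 21.1 ± 1.84 CPM in cerebellum (SD, n = 20 each). Against cerebellum the leading genes in striatum included Prkar2b, Pde2a, Arpp21, Gng7 and Pde1b, with log2 differences of 3.15 (Prkar2b) to 5.63 (Gng7). Between cortex and cerebellum, Rgs8, another regulator of G protein signalling, was a leading gene that was lower in cortex, by a log2 difference of -3.72 (SE 0.07), with 87.5 ± 9.23 CPM in cortex against 1156 ± 124 CPM in cerebellum. Pde2a (3.20, SE 0.05), Prkar2b (2.35, SE 0.04), Adcy2 (2.00, SE 0.04) and Rgs4 (4.53, SE 0.09) were higher in cortex.

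Markers of other cells were read beside these results. None of the lists for striatal, cortical, cerebellar, thalamic or dopamine neurons, choroid plexus and ependyma, astrocytes, oligodendrocytes, microglia or endothelium had a gene called by genotype over both sexes in any region. In striatum the thalamic list had the median farthest from 0 (log2 difference -0.36), with 9 of 11 genes below 0, and its sum ran from 142 to 276 CPM in PON2-deficient and from 132 to 530 CPM in wild-type libraries. In cortex 11 of 11 markers of choroid plexus and ependyma were below 0 (median -0.73), with sums of 27.5 to 513 CPM in PON2-deficient and 32.9 to 482 CPM in wild-type libraries. In cortex 12 of 12 cerebellar markers tested (median -0.19) and in cerebellum 11 of 11 choroid plexus markers (median -0.34) were also below 0. The other lists had medians between -0.13 and 0.11, and no gene of any list was at 0 throughout a group; Foxa1, Foxa2 and Pitx3 of the dopamine neuron list were not analysed here. The part of these tissues in the values of the members was not tested.

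The genes whose profile over the 12 group means was most like that of each member were sought among 14194 genes, by the root mean square (RMS) difference of centred log2 CPM. Drd3 was left out, as it had under 1 CPM in striatum. Gnal had the closest match, the striatin gene Strn at an RMS difference of 0.087, followed by Vrk1 and Foxo1. Pde10a was matched by Rarb (0.102), Scn4b and Penk, and Ppp1r1b by the same genes in another order: Penk (0.124), Scn4b and Rarb. Rgs9 was matched by the retinoid receptor gene Rxrg (0.113), Sh3rf2 and Adora2a, and Rxrg also led for Drd2 (0.335), ahead of Olfr1393 and Crabp1. Drd5 was closest to Ass1 (0.129), Klhl2 and Amz1, and Adcy5 to Mhrt (0.173), Spint1 and Pde7b. Drd1 was matched least closely, by Gpr6 (0.374), Dlx6 and Lrrc10b. Some matches were near 0 CPM in cerebellum: Mhrt (0.0191), Dlx6 (0.0137), Olfr1393 (0.0514) and Crabp1 (0.0448). Mhrt was also low in striatum (1.26 CPM). At such levels the prior count of 2 used for log2 CPM narrows differences. These ranks rest on 12 group means that mostly reflect the 3 regions.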

How the data were processed

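RNA-seq of 60 mouse brain libraries was used. The authors deposited expected counts per gene, made with Salmon, and log2 CPM values and precision weights (a score with no fixed range), made with edgeR and limma, per the submitters' processing notes; build, annotation and versions: not given in the sources used here. When recomputed from the counts, the deposited log2 values equalled the voom formula within 5.33e-14. The 20423 gene identifiers were matched to GENCODE M21.

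Expected counts were rounded, filtered with filterByExpr and scaled by TMM. Each region was fitted alone (20 libraries, 4 means of sex and genotype), and the regions in 1 fit of 60 libraries, with edgeR 4.0.16 quasi-likelihood tests in R 4.3.3 and Benjamini-Hochberg adjustment over all genes (threshold 0.05). After the filter 18962 striatum genes, 18972 cortex genes and 18710 cerebellum genes were left, and 20387 over all libraries. Intervals are 95% intervals of the fit. CPM in the text uses TMM library sizes of all libraries, and correlations use log2 CPM with a prior count of 2, tested by 100000 permutations. Precision is limited by library totals (at least 26091911 counts) and by spread between libraries, which need not come from separate animals, since the labels do not say.

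Alternatives were RLE scaling, no filter, DESeq2 1.42.0, voom with quality weights and the deposited values with limma 3.58.1, a replicate block, the mean of striatal markers as a covariate, wild-type libraries alone for the regions, and each library left out. The steps were tested on simulated data. The 9 members and all lists were chosen with earlier results of these data known. Named pathway genes were those with the smallest p in each comparison, 2 by genotype and 6 by region; 1 gene that this rule named is not reported here.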

Additional observations from a re-analysis of the deposited data

Results flagged for a closer look

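Of 108 groups of 5 libraries (9 genes in 12 groups), 4 held a library far from the other 4, where chance gives about 1 in 20 groups. Drd3 was 0.118 CPM in striatum of PON2-deficient male 5, against 0.743 to 1.11 CPM in the other PON2-deficient males. Drd5 was 2.24 CPM in striatum of PON2-deficient female 5, against 3.51 to 4.21 CPM in the other PON2-deficient females. Ppp1r1b was 217 CPM in cerebellum of PON2-deficient male 3, against 165 to 172 CPM in the other PON2-deficient males. Drd2 was 0.451 CPM in cerebellum of wild-type male 2, against 2.23 to 2.83 CPM in the other wild-type males.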

How the results depend on the processing

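No member was called by genotype or sex, and all 9 were called between regions, under every alternative run. Where all libraries were kept, genotype estimates over both sexes whose sign turned were near 0. With the striatal marker mean as a covariate, cortex gave 0.0082 for Drd2, 0.030 for Ppp1r1b and 0.027 for Rgs9, and striatum 0.043 for Rgs9. Voom with quality weights gave 0.00031 for Rgs9 in cortex and -0.018 for Gnal in cerebellum, where the deposited values gave -0.016. The cause was not tested.

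With libraries left out in turn, cortical estimates ran from -0.025 to 0.0626 for Adcy5, -0.115 to 0.0647 for Drd2, -0.0324 to 0.366 for Drd3, -0.016 to 0.0389 for Gnal, -0.049 to 0.0831 for Pde10a, -0.083 to 0.0424 for Ppp1r1b and -0.0816 to 0.0569 for Rgs9. In striatum they ran from -0.0219 to 0.0781 for Drd1, -0.0303 to 0.0723 for Drd2, -0.114 to 0.0108 for Gnal and -0.0611 to 0.0426 for Rgs9. In cerebellum they ran from -0.35 to 0.0666 for Drd1, -0.0173 to 0.0287 for Gnal, -0.0785 to 0.0557 for Pde10a and -0.152 to 0.0361 for Rgs9.

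The labels do not say whether equal replicate numbers mark pairs. Libraries of both genotypes with the same number correlated over 0.1 in 2 (cortex), 6 (striatum) and 3 (cerebellum) of 10 pairs. With different numbers these were 8 (cortex), 15 (striatum) and 9 (cerebellum) of 40 pairs. Between regions, libraries of the same sex and genotype with the same number correlated over 0.1 in 9 of 20 pairs of cerebellum and cortex, 9 of 20 of cerebellum and striatum and 8 of 20 of cortex and striatum, against 4, 6 and 15 of 80 pairs with different numbers. The fit of all libraries treats them as independent; with a replicate block all 9 members were called in each comparison of regions, as without it. With a replicate block Pde10a in cortex was at -0.013, and the genes called over both sexes were 30 in cortex against 6 without it, and 1 in striatum against 2. No call of a member changed.

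Counts over all genes depended on the tool. Over both sexes DESeq2 called 238 cortex genes, 7 striatum genes and 244 cerebellum genes, against 6, 2 and 6 by edgeR. In males it called 433, 5 and 203, against 28, 1 and 3, and in females 31, 2 and 8, against 1 each. Between males and females it called 80, 59 and 44, against 17, 20 and 22. DESeq2 called 7 genes for the difference of the genotype effect between striatum and cerebellum, against 2. Voom with quality weights called 34 genes in cortex and 23 in cerebellum over both sexes, 12 in cerebellum males, 2 in striatum of each sex and 57 between striatum of males and females. The deposited values gave 18, 12, 2 and 57 for cerebellum, its males, striatum of each sex and striatum of males against females. The covariate gave 14 genes in cortex over both sexes and 10 between the sexes. Leaving out libraries gave 1 to 26 genes in cortex, 1 to 150 in cortex males, 1 to 49 in cerebellum and 2 to 41 in cerebellum males. Depth limits Drd3 and, in cerebellum, Drd1 and Drd5.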
